A study of Mus musculus with 6 samples.

Results

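The genes described here are 8 transcription factors that pattern the ventral neural tube: the forkhead factors Foxa1 and Foxa2, the homeobox factors Nkx2-2, Nkx2-9, Nkx6-1 and Nkx6-2, and the basic helix-loop-helix factors Olig1 and Olig2. They were chosen by name, as the rows of the deposited count table whose Ensembl identifiers carry these symbols in GENCODE M21, and all 8 were found among 48526 rows. These genes and the lists below were chosen with earlier results of these data known, so counts of genes called are description only. The libraries were made from neural progenitors derived from mouse embryonic stem cells (mESCs), with RNA taken on day 8. The control was a line labelled flox/flox, the notation for alleles that carry recombinase sites, and it gave 3 libraries. Another 3 came from cells labelled -/- at Dmrta2. Both groups received the BMP receptor inhibitor LDN193189 (100 nM) and the activin and TGF-beta receptor inhibitor SB431542 (10 µM) until day 4, XAV939 (1 µM), which inhibits Wnt signalling, until day 6, and the Hedgehog pathway inhibitor cyclopamine (1 µM) from day 2 to day 10. Cyclopamine, which blocks Smoothened, was thus still present for both genotypes at day 8. Cells of both groups were replated on day 5. Each genotype is represented by 1 line, so genotype and line cannot be told apart. Nothing in the labels says that the samples of a group were separate cultures, and the p-values cover their spread alone.

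Sonic hedgehog, secreted from the notochord and then from the floor plate at the ventral midline, sets up progenitor domains along the dorsoventral axis of the neural tube. Foxa2 is induced at the midline, directs floor plate identity and activates Shh, and Foxa1 acts beside it. Nkx2-2 and Nkx2-9 mark progenitors next to the floor plate, Olig2 marks the motor neuron and oligodendrocyte progenitors above them, and Nkx6-1 covers a broad ventral territory in which Nkx6-2 partly overlaps it. Most of these factors act as repressors that exclude more dorsal programs. Foxa1 and Foxa2 are also pioneer factors of the endoderm, and Olig1 is best known from the oligodendrocyte lineage.

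The libraries held 24565560 to 39646793 counted reads, and levels are given in CPM, the read count scaled to the size of its library. Per-library values are listed in the order A, B, C, the letters of the table's columns. Dmrta2 itself was counted at 75.1 to 85.2 CPM in flox/flox and at 409 to 439 CPM in those labelled -/-. The labels do not say which part of the gene was removed, so this count checks nothing about the deletion, and all directions are those of the libraries labelled -/-. The labelled cell type was checked against 12 neural progenitor markers, all of them tested. Of these, 7 rose and 4 fell in -/- (median log2 difference 0.42), where 17.9% of all tested genes rose and 17.4% fell. For these markers, leaving out -/- B gave 4 and 1, and between 1 and 2 fell without flox/flox A or B or -/- C. Their summed level was 4132 to 4913 CPM over the 6 libraries, and Sox2, a pan-neural progenitor factor, was at 235 ± 3.79 CPM in flox/flox and 181 ± 4.13 CPM in -/- (SD, n = 3).

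Of the 8 genes, 6 share a chromosome with another member. Foxa2 (ENSMUSG00000037025, GRCm38 chromosome 2, 148042877 to 148046969, minus strand) and Nkx2-2 (ENSMUSG00000027434, 147177546 to 147194243, minus strand) are 848634 bases apart. Foxa1 (ENSMUSG00000035451, chromosome 12, 57540628 to 57546916, minus strand) and Nkx2-9 (ENSMUSG00000058669, 56611389 to 56613284, minus strand) are 927344 bases apart, so a Foxa gene and an Nkx2 gene share each of these chromosomes. Olig2 (ENSMUSG00000039830, chromosome 16, 91225457 to 91228677, plus strand) and Olig1 (ENSMUSG00000046160, 91269772 to 91271933, plus strand) are 41095 bases apart. Nkx6-1 (ENSMUSG00000035187, chromosome 5, 101658139 to 101664996, minus strand) and Nkx6-2 (ENSMUSG00000041309, chromosome 7, 139579376 to 139582797, minus strand) are not linked. All 8 are annotated as protein-coding. Exons of other genes cover 12.9% of the exonic bases of Nkx6-2 (Inpp5a, opposite strand), 9.67% of those of Nkx2-2 (its antisense gene Nkx2-2os) and 7.26% of those of Olig1, and 0 of the other members. The library kit marks strand, per the labels, but the counting's strand setting is not given in the sources used here, so reads of the overlapping genes may be included there.

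RefSeq promoter windows on GRCm38.p6, from 250 bases before to 50 bases after a start site, were matched for 7 of the 8 genes and numbered 9, because Foxa2 has 3 start sites in that table. The Gli site GACCACCCA, searched on both strands, was in 0 of the 9 windows and in 0.253% of 32851 promoters. The core letters ACANTGT of the DM domain site, the kind of DNA site that Dmrt proteins bind, were in 2 of the 9 windows and in 7.54% of all promoters. The forkhead letters TGTTTAC, added after the windows were seen, were in 1 of the 9 and in 3.65% of all. These matches are letters in a window, and the deposited counts hold no binding data. The upstream parts of the windows that held a match are shown for the Foxa genes, with the matched letters in capitals, and a short stretch is shown for Olig2. The Foxa1 sequence is chr12:57546122-57546361, the Foxa2 sequence lies before its innermost start site at chr2:148045465-148045714, and the Olig2 sequence is chr16:91225470-91225498. The first is shown for its forkhead letters 141 bases before the start, read there as the complement GTAAACA, and the others for their DM core 198 and 69 bases before the start. All are written 5′ to 3′ on the strand of the gene.
Foxa1: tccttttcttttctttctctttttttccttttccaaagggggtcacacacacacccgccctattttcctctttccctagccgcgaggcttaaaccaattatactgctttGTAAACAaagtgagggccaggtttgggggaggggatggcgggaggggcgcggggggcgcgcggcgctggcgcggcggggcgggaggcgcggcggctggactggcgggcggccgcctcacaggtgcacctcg
Foxa2: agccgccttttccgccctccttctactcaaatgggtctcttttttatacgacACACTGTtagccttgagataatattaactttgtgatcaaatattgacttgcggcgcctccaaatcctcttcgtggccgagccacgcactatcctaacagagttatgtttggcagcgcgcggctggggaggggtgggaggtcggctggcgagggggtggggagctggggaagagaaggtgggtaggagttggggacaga
Olig2: ccaggaaaagcACATTGTtcccgcccccc

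The comparison of -/- with flox/flox shows which of these ventral genes differed between the lines so labelled. Whether they depend on Dmrta2 was not tested. In the libraries labelled -/-, Foxa1, Foxa2 and Nkx6-1 rose, with fitted changes of 2.27-fold, 2.07-fold and 4.45-fold. Nkx6-2, the paralog of Nkx6-1, differed by less than the spread between replicates. Olig1 and Olig2 had higher means in -/- but did not pass the test. Nkx2-2 and Nkx2-9 had too few reads to be tested, with 38 and 42 reads over the 6 libraries. Of the 6 genes tested, 3 rose and 0 fell at an adjusted p of 0.05, where 35.3% of all 20549 tested genes passed, 17.9% as higher and 17.4% as lower. The 3 that rose were also at least 2-fold higher by the fit, which held for 4.79% of all tested genes. With 1 library left out, Foxa1 was under 2-fold without -/- C (log2 0.989). Foxa2 was under 2-fold without flox/flox B (log2 0.81) and without -/- A (log2 0.88). For these 3 genes all -/- libraries lay above all flox/flox libraries, where 51.0% of all tested genes did not overlap and 25.5% did so as higher. These are bulk cultures, so more cells expressing a gene and more RNA per cell cannot be told apart. The call for Foxa2 was lost when any of 3 single libraries was left out, as given below.

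**Figure D1:**
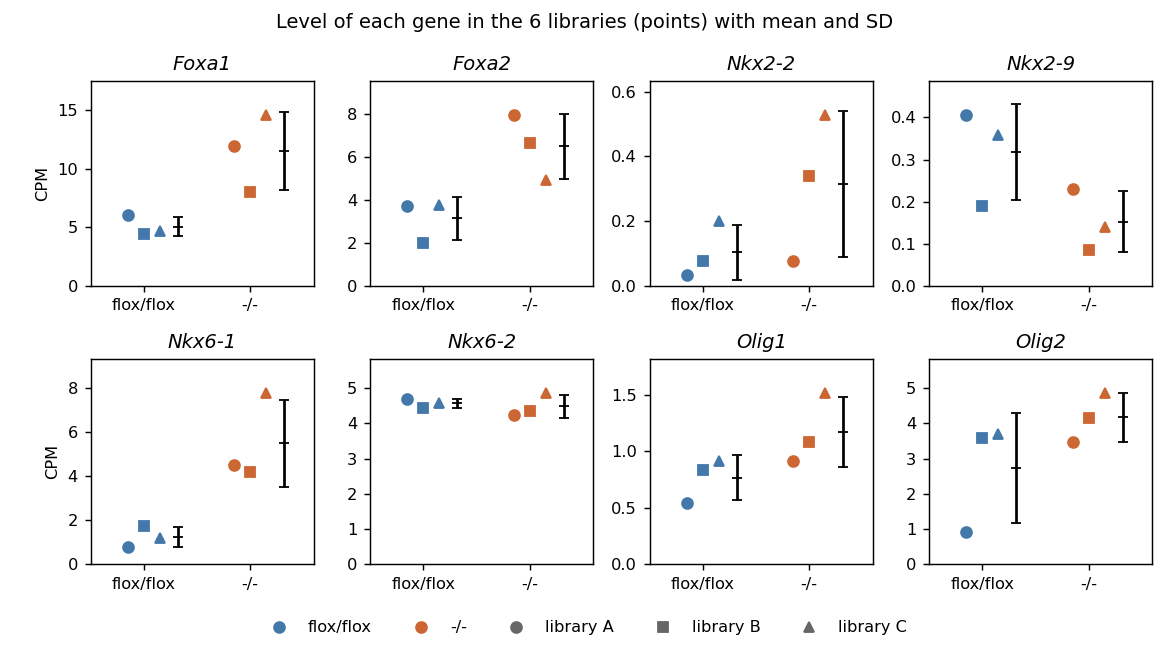
Level of each of the 8 genes in CPM (linear axes from 0) in the 3 flox/flox and 3 -/- libraries, with library letters as marker shapes and the mean and SD (n = 3) as black bars. Foxa1, Foxa2 and Nkx6-1 are higher in all 3 -/- libraries than in any flox/flox library, and Nkx6-2 is level at 4.24 to 4.86 CPM.

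Foxa1, which shares floor plate and endoderm functions with Foxa2, was at 6.01, 4.44 and 4.70 CPM in flox/flox, against 12.0, 7.97 and 14.6 CPM in the -/- libraries. The groups did not overlap, and the 3 libraries labelled -/- differed among themselves, with B the lowest. The log2 difference was 1.18 ± 0.24 (SE), with an adjusted p of 0.00763 in edgeR. It passed under all 14 alternatives, with adjusted p of at most 0.0368 and log2 differences from 0.99 to 1.40.

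Foxa2, the determinant of the floor plate, was at 3.72, 1.98 and 3.74 CPM in flox/flox, against 7.96, 6.63 and 4.93 CPM in the -/- libraries. The groups did not overlap, but the lowest -/- library, C, was close to the highest flox/flox libraries. The log2 difference was 1.05 ± 0.28 (SE, adjusted p = 0.0220, edgeR). Without flox/flox B it was 0.81 (adjusted p = 0.0510), without -/- A 0.88 (0.0667) and without -/- B 1.05 (0.0631), so that the call rested on all of these libraries. The order of the -/- libraries was not that of Foxa1: Foxa1 was highest in C, where Foxa2 was lowest. The ratio of Foxa1 to Foxa2 per kilobase was 1.15, 1.60 and 0.894 in flox/flox and 1.07, 0.855 and 2.11 in -/-, so that neither gene exceeded the other in every library of a group.

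Nkx6-1, needed for motor neuron and ventral interneuron progenitors, was at 0.777, 1.71 and 1.20 CPM in flox/flox, against 4.50, 4.17 and 7.74 CPM in the -/- libraries. The groups did not overlap, and -/- C was the highest library. The log2 difference was 2.15 ± 0.35 (SE, adjusted p = 0.00323, edgeR), the largest among the 6 genes tested here. It passed under all 14 alternatives (adjusted p from 4.35e-08 to 0.0101).

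Nkx6-2, which can take over part of the function of Nkx6-1, was at 4.70, 4.44 and 4.58 CPM in flox/flox, against 4.24, 4.37 and 4.86 CPM in the -/- libraries. The groups overlapped. The log2 difference was -0.03 ± 0.12 (SE, adjusted p = 0.875, edgeR), with a 95% interval from -0.31 to 0.25, so that a change of the size fitted for Nkx6-1 lies outside the interval. The ratio of Nkx6-1 to Nkx6-2 per kilobase of exon was 0.101, 0.234 and 0.159 in flox/flox and 0.644, 0.580 and 0.969 in -/-. These ratios did not overlap between the groups (exact two-sided permutation test on log2 ratios, p = 0.10, the smallest that 3 libraries against 3 allow).

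Olig2, the progenitor factor of motor neurons and oligodendrocytes, was at 0.912, 3.57 and 3.71 CPM in flox/flox, against 3.48, 4.17 and 4.86 CPM in the -/- libraries. Flox/flox A stood apart, and the other control libraries overlapped those labelled -/-. The log2 difference was 0.62 ± 0.44 (SE, adjusted p = 0.312, edgeR), with a 95% interval from -0.40 to 1.64, and it was 0.19 without flox/flox A (adjusted p = 0.489). Olig1, its neighbour, was at 0.541, 0.836 and 0.916 CPM in flox/flox and 0.915, 1.08 and 1.51 CPM in -/-, again lowest in flox/flox A. Its groups met at flox/flox C and -/- A, and the log2 difference of 0.61 ± 0.29 (SE) did not pass (adjusted p = 0.151, edgeR; 95% interval -0.08 to 1.29). Nkx6-1 and Nkx2-2 were lowest in flox/flox A as well.

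Nkx2-2 and Nkx2-9, the factors of the domain next to the floor plate, had the fewest reads of the 8 genes. Nkx2-2 had 1, 2 and 5 reads in the flox/flox libraries and 3, 12 and 15 in those labelled -/-. The highest value was in -/- C, but -/- A was below flox/flox C, and its antisense gene Nkx2-2os overlaps part of its exons. Nkx2-9 had 12, 5 and 9 reads in flox/flox and 9, 3 and 4 in -/-, and these groups overlapped as well. With no filter on low counts, the adjusted p in edgeR was 0.194 for Nkx2-2 (log2 difference 1.57 ± 0.78, SE) and 0.205 for Nkx2-9 (-1.01 ± 0.51).

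Per kilobase of exon, where levels can be compared between genes, Nkx6-2 had the highest mean in flox/flox, at 2.40 ± 0.0661 RPKM (CPM per kilobase of exon; SD, n = 3), above every library of the other members. Its level may include reads of Inpp5a, whose exons cover 12.9% of its exonic bases. Nkx6-2 was followed by Foxa1 (1.52 ± 0.253), Foxa2 (1.33 ± 0.428) and Olig2 (1.08 ± 0.623), whose library values overlapped. Then came Nkx6-1 (0.391 ± 0.149), Olig1 (0.353 ± 0.0915) and Nkx2-9 (0.252 ± 0.0897), which overlapped among themselves. The highest flox/flox values of Nkx6-1 (0.545) and Olig1 (0.424) exceeded that of Olig2 in flox/flox A (0.361), and the highest of Nkx2-9 (0.321) did not. Nkx2-2 was lowest, at 0.0358 ± 0.0299 RPKM. In -/- the order opened with Foxa1 (3.46 ± 0.999 RPKM), Foxa2 (2.74 ± 0.641) and Nkx6-2 (2.35 ± 0.170), whose values overlapped, followed by Nkx6-1 (1.74 ± 0.629) and Olig2 (1.65 ± 0.271), and the highest Nkx6-1 library reached into the range of those above. Olig1 was at 0.540 ± 0.143 RPKM, Nkx2-9 at 0.120 ± 0.0573 and Nkx2-2 at 0.109 ± 0.0789. Of the summed RPKM of the 8 genes, Nkx6-1 made up 5.32% in flox/flox and 13.7% in -/-, and Nkx6-2 made up 32.6% and 18.5%.

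The genes through which Hedgehog signalling reads itself out were measured beside the ventral factors. Shh, the ligand, was at 0.980, 1.29 and 1.59 CPM in flox/flox, against 28.3, 21.1 and 32.4 CPM in the -/- libraries (log2 difference 4.41 ± 0.23, SE, adjusted p = 0.000140, edgeR). Exons of other genes cover 28.3% of its exonic bases. Of the 4 feedback targets of the pathway, 3 rose and 0 fell, with a median log2 difference of 1.27, against -0.00253 over all tested genes. The receptor gene Ptch1 rose 4.49-fold and Hhip, a Hedgehog-binding membrane protein, 3.48-fold. Gli1, both an activator and a target of the pathway, went from 2.07 ± 0.376 to 3.44 ± 0.314 CPM (SD, n = 3; adjusted p = 0.0163, edgeR), a call lost without flox/flox B (0.0517) or -/- B (0.0641), which left 2 targets. Of 10 transducers and coreceptors, 0 rose and 3 fell, where 17.9% of all tested genes rose and 17.4% fell. Those that fell were the ligand-binding coreceptors Gas1 (6.27-fold lower) and Cdon (4.20-fold lower), and Gli2 (1.55-fold lower). The median log2 difference of these 10 was -0.18. The number that fell was 5 without -/- A, and 5 when the letter was fitted as a block.

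**Figure D2:**
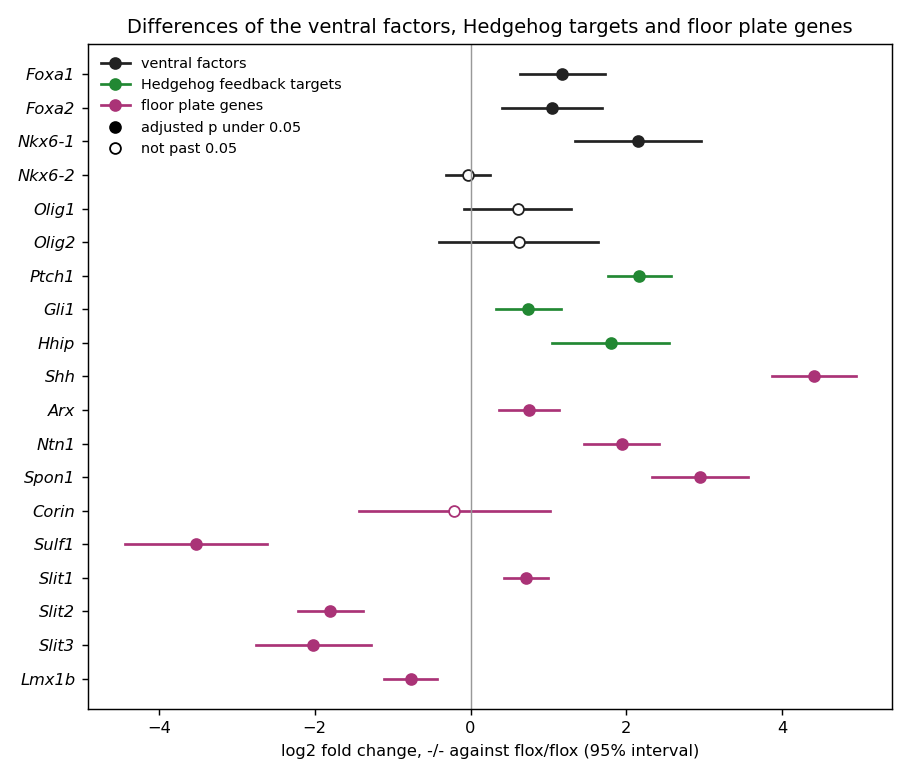
Log2 fold changes of -/- against flox/flox with 95% intervals from edgeR, for the 6 tested ventral factors (black), 3 Hedgehog feedback targets (green) and the tested floor plate genes (purple), with filled points for an adjusted p under 0.05. Shh has the highest value, at 4.41, and the floor plate genes lie on both sides of 0.

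Genes of the floor plate other than the Foxa factors moved in both directions. Of 11 listed genes 10 were tested, 5 rose and 4 fell, where 17.9% of all tested genes rose and 17.4% fell. The median log2 difference of the list was 0.25. Beside Shh, the rises included Spon1, a secreted axon guidance protein (1.50 ± 0.544 to 11.6 ± 2.24 CPM, SD, n = 3), and Ntn1, the midline attractant netrin-1 (20.8 ± 6.49 to 79.8 ± 9.67 CPM). Ntn1 lies on chromosome 11, as does Slit3. The falls included the sulfatase gene Sulf1 (538 ± 292 to 46.6 ± 9.85 CPM) and the repellent genes Slit2 (363 ± 86.5 to 104 ± 14.0 CPM) and Slit3 (4.05-fold lower), all of which have other sites of expression in the embryonic brain. Corin (added, meaning chosen after its value was seen), a protease of the midline, was at 5.68, 1.33 and 1.51 CPM in flox/flox and 2.97, 2.32 and 2.15 CPM in -/-. Its log2 difference was -0.21 and turned to 0.81 without flox/flox A, where it passed (adjusted p = 0.0400, edgeR). Ferd3l (added), a midline bHLH factor, had 0 reads in all 3 flox/flox libraries and 11 in all in -/-, too few to be tested. The midbrain floor plate and dopaminergic list held 11 tested genes, of which 7 fell and 1 rose, with a median log2 difference of -0.77. Lmx1a, which marks the midbrain floor plate and the roof plate, fell 8.22-fold, En2 3.91-fold and Otx2 2.47-fold, and Th, the dopamine synthesis enzyme, rose from 0.440 ± 0.175 to 1.73 ± 0.318 CPM (SD, n = 3). Without flox/flox A, 2 of them rose.

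The opposing class of progenitor factors, which Hedgehog signalling represses and which share borders with the Nkx and Olig genes, was called about as often as genes at large. Of 7 listed genes 6 were tested, 1 rose and 1 fell, with a median log2 difference of 0.19, where 35.3% of all tested genes passed. Pax6 rose from 108 ± 8.96 to 162 ± 0.381 CPM, and Pax7, a dorsal factor, went from 10.9 ± 1.40 to 6.53 ± 1.63 CPM (SD, n = 3; adjusted p = 0.0198, edgeR). The fall of Pax7 was not called without flox/flox A, flox/flox B, -/- A or -/- B (adjusted p from 0.0601 to 0.0769 in edgeR). Dbx1 (added), which borders the Nkx6 domain, was at 7.20, 19.9 and 22.5 CPM in flox/flox and at 26.9, 34.1 and 35.4 CPM in -/-. Its log2 difference of 0.96 did not pass (adjusted p = 0.0755, edgeR) but did with no low-count filter (0.0366), with limma-voom (0.0448), with the letter as a block (0.00868), and when flox/flox A (0.0215) or C (0.0417) was left out. With the block, 2 of the list rose and 2 fell.

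Factors of the neuron classes that arise from ventral progenitors rose in 6 and fell in 2 of 13 tested members, of 17 listed. Their median log2 difference was 0.30, and 17.9% of all tested genes rose and 17.4% fell. Sim1, a factor of ventral interneurons next to the floor plate and of the hypothalamus, was at 0.338, 1.18 and 1.43 CPM in flox/flox and at 15.3, 13.6 and 25.8 CPM in -/- A, B and C. Foxn4, of ventral interneuron progenitors, rose 4.19-fold and Evx2, of commissural interneurons, 8.73-fold. The motor neuron gene Isl2 fell 1.68-fold (adjusted p = 0.0482, edgeR, and 0.0567 with the letter as a block) and Evx1 2.33-fold. Of the 6 exclusions of 1 library, Isl2 stayed past the threshold only in that of -/- C (adjusted p up to 0.145, edgeR), and Evx1 lost its call without flox/flox A (0.0538), flox/flox C (0.0545) or -/- B (0.0801). The count of falls was 0 without -/- B, and 1 without flox/flox B or -/- A (Evx1), flox/flox A (Gata2, added, 0.0366) or flox/flox C (En1, added, 0.00512). The number that rose was 6 under each of the 14 alternatives. Among 11 hypothalamic genes, 6 were tested, 4 rose and 1 fell, and the median log2 difference was 1.85. Foxb1 rose 1.63-fold and Hmx3 fell from 1.48 ± 1.40 to 0.0942 ± 0.0294 CPM (SD, n = 3). The count of falls was 2 without flox/flox C. Nkx2-1, the hypothalamic relative of Nkx2-9 on chromosome 12, had 3 reads over the 6 libraries, and Nkx2-4, the neighbour of Nkx2-2, also had 3.

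Foxa1 and Foxa2 are made in endoderm as well as in the floor plate, and several endoderm markers were higher in the same group. Of 13 listed endoderm genes 9 were tested, 4 rose and 1 fell, with a median log2 difference of 0.77, where 17.9% of all tested genes rose and 17.4% fell. Sox17, a determinant of endoderm, was at 2.91, 1.10 and 1.35 CPM in flox/flox, against 11.5, 15.3 and 6.58 CPM in the -/- libraries. Hnf4a, a factor of visceral endoderm and liver, went from 0.0949 ± 0.0666 to 1.24 ± 0.415 CPM (SD, n = 3; adjusted p = 0.00165, edgeR). Gata6 (added) went from 0.984 ± 0.285 to 2.59 ± 1.19 CPM, a call lost with limma-voom (0.0643) and when flox/flox B or C or -/- A or B was left out (adjusted p up to 0.104, edgeR). Cdx2, of the hindgut and caudal embryo, fell 2.75-fold. The summed level of the 13 genes overlapped between the groups, at 43.4 to 55.8 CPM in flox/flox and 37.1 to 68.2 CPM in -/-. Among the listed endoderm genes too low to test, Afp had 0 reads in flox/flox and 12 in all in -/-, Apoa1 had 15 reads over the 6 libraries, and Pdx1 had 8, with 0 in -/-. Within -/-, Sox17, Hnf4a and Gata6 were highest in B and lowest in C, whereas Foxa1 and Nkx6-1 were highest in C and lowest in B, and Foxa2 was highest in A and lowest in C. Shh was likewise highest in C and lowest in B. The part of endoderm cells in the Foxa1 and Foxa2 counts was not tested.

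**Figure D3:**
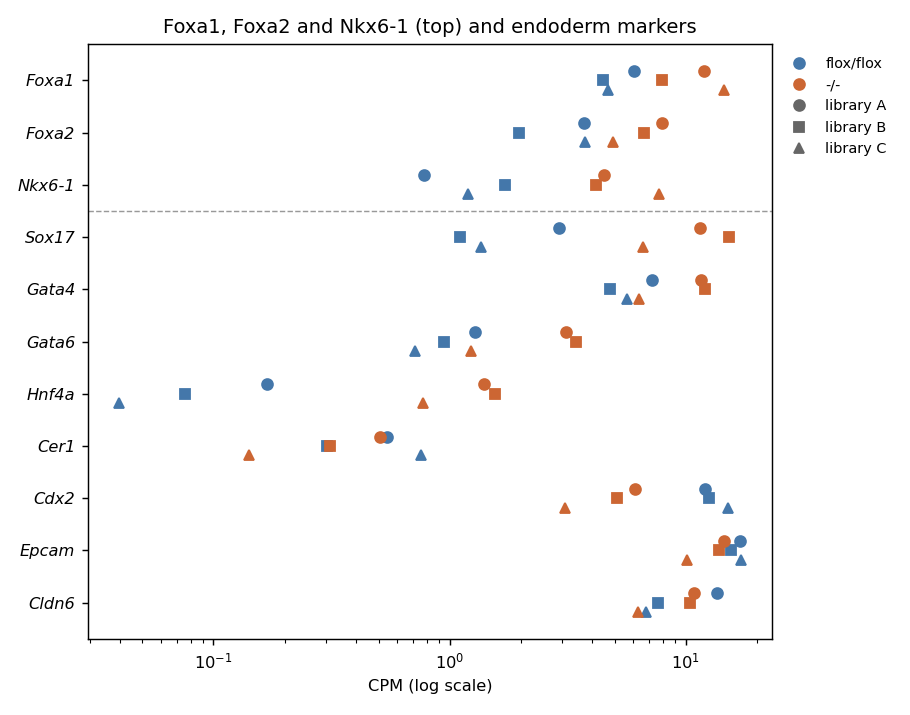
CPM on a log axis of Foxa1, Foxa2 and Nkx6-1 (above the dashed line) and of 8 endoderm markers (below it) in each library, with genotype as colour and library letter as shape. Sox17 and Hnf4a are higher in all -/- libraries, with -/- C the lowest of them, while Cdx2 is lower and Epcam, Cldn6 and Cer1 overlap or do not pass.

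Markers of the oligodendrocyte lineage, in which Olig1, Olig2, Nkx2-2 and Nkx6-2 are also active, rose in 3 and fell in 1 of 9 tested members, of 12 listed, with a median log2 difference of -0.07. Of all tested genes 17.9% rose and 17.4% fell. The summed level was 93.4 to 114 CPM in flox/flox and 130 to 145 CPM in -/-. Cnp, on chromosome 11, rose 1.98-fold. Cspg4, of oligodendrocyte precursors, fell from 0.471 ± 0.177 to 0.121 ± 0.0484 CPM (SD, n = 3). Without flox/flox B, 1 member rose, and the count of falls was 0 without -/- B and 2 without flox/flox C, without -/- C or when the letter was fitted as a block. Sox10, a defining factor of the lineage, had 44 reads over the 6 libraries and Mag had 21. The part of this lineage in the Olig counts was not tested.

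The genes around the ventral factors were compared as well, taking tested genes within 500000 bases of a member. Of 66 such genes 10 rose and 7 fell, or 25.8%, beside 35.3% of all tested genes. The share differed between members: 50% of 4 neighbours for Foxa1 and for Foxa2, 47.4% of 19 for Nkx6-2 and 33.3% of 6 for Nkx6-1. It was 25% of 4 for Nkx2-9, 8.33% of 24 for Olig1 and 8% of 25 for Olig2, and the Olig genes share most of theirs. The noncoding gene 9030622O22Rik (added; chromosome 2, 147944740 to 148040203, minus strand), annotated as a lincRNA, lies 2674 bases from Foxa2. It had 2, 1 and 0 reads in the flox/flox libraries and 14, 24 and 10 in those labelled -/-, so that the groups did not overlap. The ratio of its read rates was 12.6, with an exact 95% interval of 4.06 to 63.2 that covers counting error only, and the adjusted p in edgeR was 0.00631. On the other side of Foxa2, Cd93, an endothelial surface protein gene, fell from 0.613 to 0.138 CPM. Near Nkx6-2, which did not pass, Adgra1 and Caly rose and Inpp5a, whose exons overlap it, fell from 33.7 to 24.5 CPM. Around Nkx2-2, 0 of 5 neighbours passed.

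**Figure D4:**
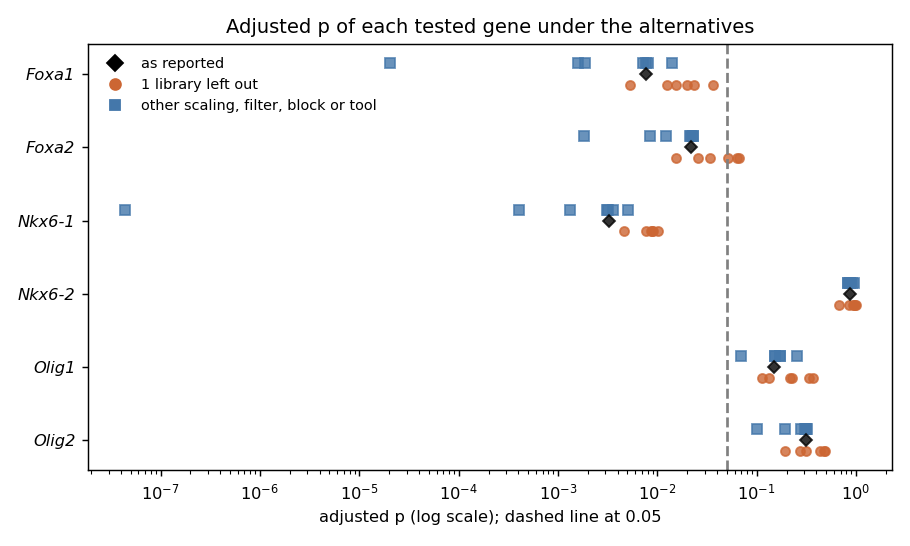
Adjusted p on a log axis of each of the 6 tested ventral factors as reported (black), with 1 library left out (orange) and with another scaling, filter, block or tool (blue), and a dashed line at 0.05. Foxa1 and Nkx6-1 lie left of the line in every case, Foxa2 crosses it in 3 exclusions (0.0510 to 0.0667), and Nkx6-2, Olig1 and Olig2 lie right of it in every case.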

How the data were processed

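RNA was profiled in 6 libraries. The authors deposited 1 table of unnormalised counts by Ensembl identifier, made with BWA 0.5.9 and featureCounts 1.4.6 on mm10 (GRCm38), per the submitters' processing notes. Neither the annotation release nor the strand setting of the counting is stated in the labels. Columns name genotype and a letter (A to C), so each was assigned to a group, and 0 columns were left out. Libraries of a group differed by more than sampling noise (chi-square per gene 5.47 to 29.8).

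Differences were tested in R 4.3.3 with edgeR 4.0.16 (glmQLFit, glmQLFTest, two-sided, TMM scaling, filterByExpr with a minimum count of 10 and total of 15, group alone) over 20549 genes, with Benjamini-Hochberg adjustment and a threshold of 0.05. In the text, "rose" and "fell" are kept for genes past this threshold. CPM are TMM-normalised, and fold changes are from the fit. The 95% intervals are for the fitted coefficient. Alternatives were DESeq2 1.42.0, limma 3.58.1 (voom), other scalings, filters, a threshold of 0.01, single libraries left out and a block. Deviations of libraries with the same letter correlated (r = 0.275, 0.101 and 0.264 for A, B and C), so the letter was taken to pair them and entered the block alternative. The reported tests use the group alone, and the permutation tests of ratios are unpaired.

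Named genes are the members, Shh, Ptch1, Gli1, up to 3 per list (of 11) and direction by adjusted p, likewise for neighbours, and the 3 genes most like a member with a mean of at least 5 CPM. Genes outside this rule, chosen after their values were seen, are those marked as added and those too low to test. The figures also show listed genes outside this rule. Some listed genes are not reported here by name, though the counts include them. Members and lists were chosen with earlier results of these data known. Promoters came from RefSeq.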

Additional observations from a re-analysis of the deposited data

How the results depend on the processing

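Of the 6 tested ventral factors, Foxa1 and Nkx6-1 kept their call, and Olig1, Olig2 and Nkx6-2 stayed short of it, in every alternative in which they were tested. The number that rose was 3, 2 at a threshold of 0.01 and 2 to 3 with 1 library left out. Foxa2 (log2 1.05) missed the threshold of 0.01 and ranged from 0.81 to 1.22 with 1 library left out. Nkx6-2 ranged from -0.078 to 0.013 there, with its sign turned without -/- A (0.013) and -/- B (0.0012). With the column letter as a replicate block, 5 Hedgehog transducers fell, 2 class I factors rose and 2 fell, and 2 oligodendrocyte genes fell, and the call of no ventral factor changed. At a threshold of 0.01, 0 class I factors, 0 ventral neuron factors, 0 oligodendrocyte and 0 hypothalamic genes fell, 1 oligodendrocyte and 2 hypothalamic genes rose, 3 neural progenitor genes rose and 1 fell, and of all genes 1992 rose and 1895 fell. With no low-count filter 2 class I factors rose, 2 hypothalamic genes and 2 family paralogs fell. At 1 CPM in 3 libraries, 0 oligodendrocyte and 0 hypothalamic genes fell, since fewer genes were tested. With limma-voom 2 class I factors rose and 2 oligodendrocyte genes fell, and with DESeq2 1 family paralog fell. With 1 library left out, the ranges were 3 to 5 Hedgehog transducers lower, 1 to 2 class I factors higher and 0 to 1 lower, 0 to 3 ventral neuron factors lower, 1 to 4 oligodendrocyte genes higher and 0 to 2 lower, 1 to 2 hypothalamic genes lower, 1 to 2 midbrain genes higher, 0 to 1 family paralogs lower, 4 to 8 neural progenitor genes higher and 1 to 4 lower, and 2315 to 3510 of all genes higher and 2342 to 3336 lower. Among single genes, Corin turned in sign with limma-voom (0.093) and without flox/flox A (range -0.54 to 0.81) and Olig3 (added) without flox/flox B (-0.18 to 0.78). The cause of these shifts was not tested. Nkx2-2 and Nkx2-9, at 38 and 42 reads in all, fell below the low-count filter, so the reported fit has no test of them.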

Other observations

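Other members of the same gene families were also measured. Of 12 paralogs listed, 5 were tested, 3 rose and 0 fell (median log2 difference 1.58), beside 35.3% of all tested genes passing. Bhlhe22 and Bhlhe23, relatives of the Olig genes that are active in differentiating neurons, rose: Bhlhe22 went from 2.97 ± 1.69 to 33.5 ± 7.61 CPM, and Bhlhe23 from 1.77 ± 0.259 to 5.65 ± 0.792 CPM (SD, n = 3; adjusted p = 0.000630 and 0.000704, edgeR). Olig3 (added), a dorsal progenitor factor, had 1.19 ± 0.755 CPM in flox/flox and 1.40 ± 0.294 CPM in -/-, short of the threshold (adjusted p = 0.741, edgeR). Nkx2-3, a factor of gut mesoderm and pharyngeal endoderm, rose 3.00-fold from 0.246 ± 0.0491 CPM (adjusted p = 0.00350, edgeR). Foxa3, the remaining Foxa gene and an endoderm factor, had 32 reads over the 6 libraries and was not tested.

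Only Foxa1 had a mean of at least 5 CPM. Among 11508 genes at that level, those whose log2(CPM + 1) over the 6 libraries was most like that of Foxa1 were Dync1h1, Clptm1 and Bloc1s6 (Pearson r = 0.993, 0.993 and 0.990). Their own differences were small: the log2 difference was 0.08 for Dync1h1 and 0.06 for Clptm1, neither past the threshold, and Bloc1s6 rose 1.18-fold (adjusted p = 0.0234, edgeR), a call lost when flox/flox B (0.0863), flox/flox C (0.0535) or -/- A (0.0504) was left out. The 6 points share the library and its depth. These r are the highest among 11508 genes, and how high the top values would be without any link was not tested. GC content of the 9 promoter windows was 51.7% to 67.3%, with 5 above the upper quartile of all promoters (61.7%, median 52.7%).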
